A study of Mus musculus with 20 samples.

Results

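The 10 genes described here mark the hepatocytes around the central vein of the liver lobule, or carry the Wnt signal that shapes them. They are *Glul*, *Slc1a2*, *Rhbg* and *Oat* of ammonia and glutamine handling, and *Axin2*, *Znrf3*, *Lgr5*, *Tbx3*, *Lect2* and *Fzd4* of the Wnt pathway. They were taken by gene symbol from a table of 50559 genes counted by RNA-seq, and all 10 were in the table and passed the filter on low counts in every comparison. The table covers 20 livers of mice homozygous for a floxed *Cideb* allele (*Cideb* fl/fl, C57BL/6 background), and each of the 4 groups held 5 livers. The mice called WT were given AAV-TBG-GFP and those called KO were given AAV-TBG-Cre, so WT mice also carried the floxed allele and a virus. The TBG promoter drives expression in hepatocytes, which limits the deletion of *Cideb*, a lipid droplet gene, to these cells, while the other cells of the liver keep the gene. The vector was given to young mice, and they were then fed either a western diet (WD) or a high-fat diet that lacks choline and supplies defined amino acids (CDA-HFD). The labels give 3 months for both diets, whereas the study's text describes a longer feeding on WD than on CDA-HFD, so the diets cannot be told apart from the time spent on them. Nothing in the labels states whether the livers of a group came from separate litters or cohorts, and the p-values measure the spread between these livers.

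The liver lobule is divided into zones along the flow of blood from the portal to the central vein. Endothelial cells of the central vein secrete Wnt2, Wnt9b and R-spondin 3, which activate β-catenin in the hepatocytes next to them. These cells express glutamine synthetase and take up ammonia that the periportal hepatocytes, which run the urea cycle and glutaminase, have let through. AXIN2 and ZNRF3 are induced by the pathway and restrain it, LGR5 is a receptor for R-spondins, and FZD4 is a Frizzled receptor for Wnt ligands.

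Promoter sequences (RefSeq, GRCm38.p6) were found for 6 of the 10 genes, *Glul*, *Slc1a2*, *Fzd4*, *Oat*, *Axin2* and *Lect2*. Each covers 250 bases before and 50 bases after the annotated start. These were searched on both strands for 4 core motifs of the TCF/LEF factors that partner β-catenin, namely the motif CTTTGAA, the motif CTTTGAT, the motif CTTTGTA and the motif CTTTGTT. Of 32851 promoters in the same table, 16.9% held at least 1 of the 4, and 3.73% held CTTTGAT. Among the 6 genes a match was present in *Slc1a2* and in *Lect2* and in none of the other 4, and both matches were CTTTGAT on the minus strand of the gene, which reads ATCAAAG on the printed strand. The 60 bases around each match are shown 5′ to 3′ on the gene's strand, with the match in capitals, because they are the places in these windows where the motif occurs. A match does not show that a factor binds there. The *Slc1a2* stretch lies at chr2:102706205-102706264 on the plus strand, from 233 to 174 bases before the start in the RefSeq table. That start lies 47779 bases inside the gene as GENCODE draws it, so the window is not at the outermost start of *Slc1a2*, and the bases before that one were not searched. For the other 5 genes the starts in RefSeq and GENCODE lie within 36 bases of each other. The *Lect2* stretch lies at chr13:56548539-56548598 on the minus strand and ends at the base before the start.
Slc1a2: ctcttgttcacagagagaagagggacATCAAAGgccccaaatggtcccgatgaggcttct
Lect2: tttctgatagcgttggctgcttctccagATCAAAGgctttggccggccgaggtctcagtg

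The reads counted on genes ran from 11697049 to 16827147 over the livers. Values below are CPM, read counts relative to library size, scaled over the 20 livers by edgeR's TMM method, which sets libraries to a common scale from the bulk of the genes. On WD, *Cideb* averaged 6.05 ± 1.12 CPM in WT livers against 0.155 ± 0.165 CPM in KO livers, and on CDA-HFD 3.05 ± 0.652 against 0.163 ± 0.154 CPM (SD, n = 5 each). Its counts ran from 0 to 6 in the 10 KO livers and from 35 to 100 in the 10 WT livers, so each library matched its label. *Cideb* shares 1136 bp of exon with *Nop9* on the opposite strand. A pair of libraries stood apart from their groups. KO liver 5 on CDA-HFD lay at -41.7 on the first principal component of that diet (59.9% of the variance), among the WT livers at -64.5 to -7.76 and away from the other 4 KO livers at 43.3 to 67.0. KO liver 3 on WD had 6.82% of its reads unaligned and the highest share of reads aligned to more than 1 place, 28.7%, where the lowest share over the 20 livers was 18.0%. Counts of the 10 genes and of many of the gene lists are also given without these livers where they touch a comparison.

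*Glul*, which encodes glutamine synthetase, was the most abundant of the 10 genes. Per kilobase of exon its level in WT livers on WD was 495 ± 59.0 CPM (SD, n = 5), followed on the same scale by *Oat* (ornithine aminotransferase) at 307 ± 107 CPM and *Lect2*, a secreted protein of hepatocytes, at 84.1 ± 13.0 CPM. *Slc1a2*, a glutamate transporter, was at 31.1 ± 4.67 CPM per kilobase. *Fzd4* was at 15.3 ± 1.14, *Tbx3*, a transcription factor under β-catenin control, at 7.91 ± 1.17, and *Rhbg*, an ammonium transporter, at 6.14 ± 1.76. The negative regulators of the pathway, *Znrf3* and *Axin2*, were at 4.06 ± 0.363 and 3.06 ± 0.372, and *Lgr5* was lowest at 0.776 ± 0.208 CPM per kilobase. The lowest count of *Lgr5* in a liver was 42 reads, and that of *Glul* was 14142.

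**Figure D1:**
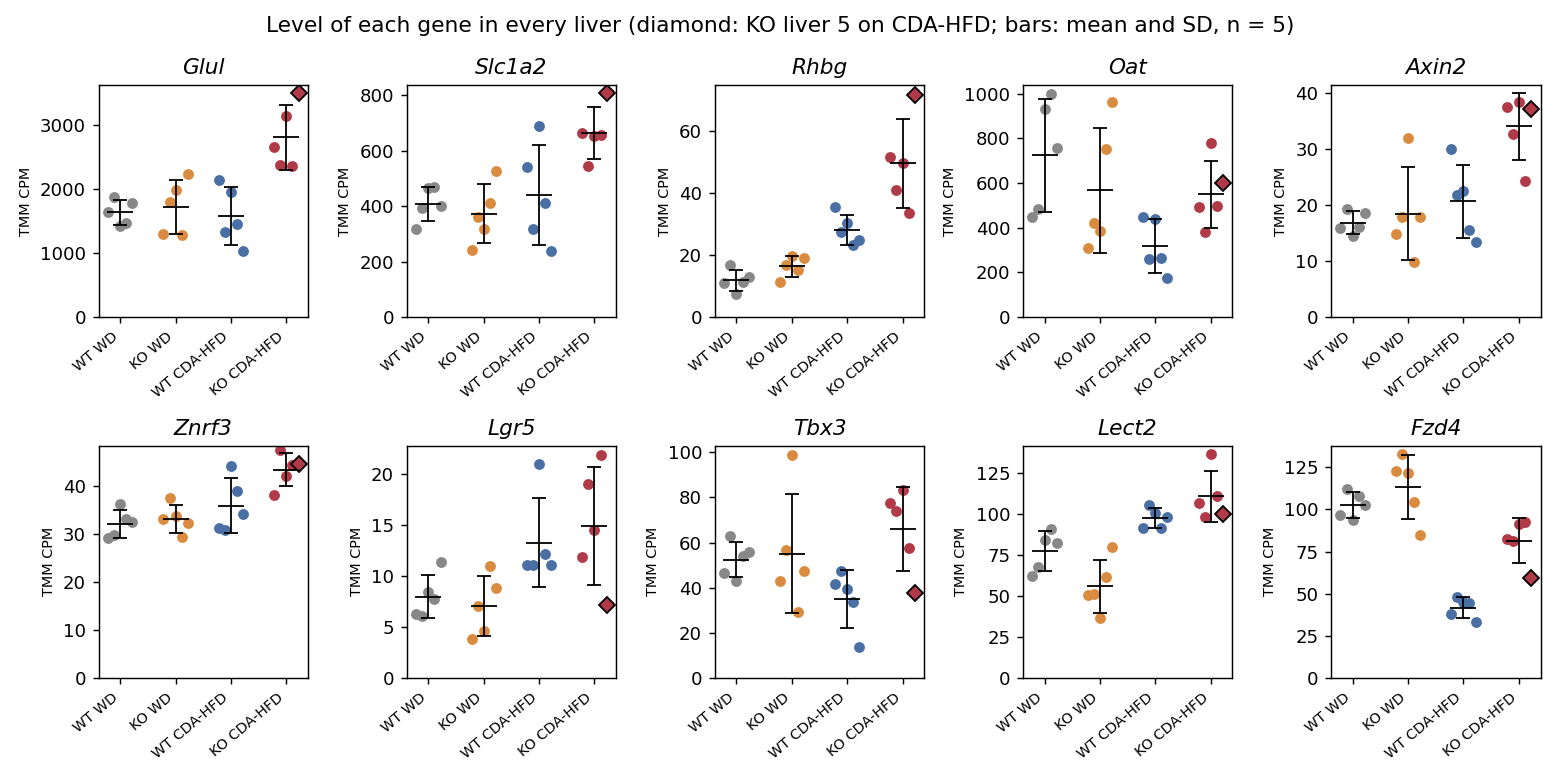
TMM-normalized CPM (vertical axes, from 0) of the 10 genes in each of the 20 livers, with the 4 groups along the horizontal axes, 1 point per liver, and black bars for the mean and SD. KO livers on CDA-HFD were highest for *Glul* (2372 to 3510.1 CPM) and *Rhbg* (33.5 to 71.5 CPM), and WT livers on CDA-HFD were lowest for *Fzd4* (33.1 to 48.1 CPM).

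The genes lie on 8 chromosomes of the GRCm38 annotation, and the values are sums over their exons. *Glul* is on chromosome 1 (153899944 to 153909723, plus strand), *Slc1a2* on chromosome 2 (102658659 to 102790784, plus), *Rhbg* on chromosome 3 (88242874 to 88254709, minus) and *Oat* on chromosome 7 (132557478 to 132576398, minus). *Axin2* is on chromosome 11 (108920349 to 108950783, plus), as is *Znrf3* (5276324 to 5444847, minus). *Lgr5* is on chromosome 10 (115450311 to 115587780, minus), *Tbx3* on chromosome 5 (119670669 to 119684724, plus), *Lect2* on chromosome 13 (56542464 to 56548502, minus) and *Fzd4* on chromosome 7 (89404355 to 89413134, plus). *Rhbg* shares 1190 of its 1937 bp of exon with a predicted gene on the same strand, so reads there may have been lost and its level is uncertain. *Axin2* (209 bp), *Slc1a2* (189 bp), *Glul* (116 bp) and *Tbx3* (115 bp) share small stretches with other genes, mostly on the opposite strand, and the other 5 genes share none.

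The first comparison asked what hepatocyte loss of *Cideb* did to these genes on WD. None of the 10 changed at an adjusted p under 0.05 (edgeR's quasi-likelihood test with Benjamini-Hochberg adjustment over 15848 genes, of which 12, or 0.0757%, passed). At an unadjusted p under 0.05 there were 1702 genes, and *Rhbg* and *Lect2* were among them. DESeq2 also called 0 of the 10. The median log2 fold change was 0.06 over the 10 genes and 0.01 over all genes tested.

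*Rhbg* was at 11.1, 16.8, 7.40, 11.3 and 12.8 CPM in the 5 WT livers and at 11.4, 16.9, 19.7, 15.0 and 19.1 CPM in the 5 KO livers on WD. The groups overlapped, and the log2 fold change was 0.47 (standard error, SE, 0.20, edgeR adjusted p = 0.444). *Lect2* was at 62.0, 67.9, 83.9, 90.7 and 82.1 CPM in WT livers and at 50.2, 51.3, 36.4, 61.5 and 79.8 CPM in KO livers. KO liver 3 was lowest, the groups overlapped, and the log2 fold change was -0.46 (SE 0.18, edgeR adjusted p = 0.406). The 95% intervals of the log2 fold change ran from -0.29 to 0.42 for *Glul*, from -0.10 to 0.39 for *Fzd4* and from -0.14 to 0.24 for *Znrf3*. They were wider for *Oat* (-1.06 to 0.37), *Lgr5* (-0.78 to 0.45), *Tbx3* (-0.48 to 0.62), *Axin2* (-0.40 to 0.66) and *Slc1a2* (-0.53 to 0.27). KO liver 3, the library with the most unaligned reads, had the highest *Axin2* of its group (32.0 CPM, against 9.78 to 17.9 in the other 4) and the highest *Tbx3* (98.7 CPM, against 29.3 to 56.8). Without it, the log2 fold changes were -0.16 for *Axin2* and -0.25 for *Tbx3*, against 0.13 and 0.07 with it, and those of *Rhbg* and *Lect2* were 0.39 and -0.35.

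On CDA-HFD, 4 of the 10 genes were higher in KO than in WT livers and 0 were lower. They were *Fzd4*, *Rhbg*, *Glul* and *Axin2*, each 1.65-fold to 1.95-fold higher. Of 17204 genes tested on this diet, 15.5% passed in either direction. The median log2 fold change was 0.75 over the 10 genes and 0.00 over all genes tested. All 10 log2 fold changes were above 0, from 0.16 to 0.96.

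*Glul* was at 2138, 1332, 1958, 1456 and 1042 CPM in the 5 WT livers on CDA-HFD and at 2657, 2373, 3151, 2372 and 3510.1 CPM in the 5 KO livers. Every KO liver was above every WT liver, as was the case for 2 of the 10 genes, while the groups did not overlap in either direction for 9.58% of all genes tested. The means were 1585 ± 453 and 2813 ± 503 CPM (SD, n = 5), and the log2 fold change was 0.82 (SE 0.22, edgeR adjusted p = 0.0319). The exact two-sided permutation test gave p = 0.00794, the smallest that 5 livers against 5 allow.

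*Rhbg*, which moves ammonium across the membrane of the same cells, was at 35.3, 27.4, 30.3, 23.1 and 24.7 CPM in WT livers and 51.6, 40.9, 49.6, 33.5 and 71.5 CPM in KO livers. Only KO liver 4, at 33.5 CPM, fell inside the WT range. The log2 fold change was 0.81 (SE 0.19, edgeR adjusted p = 0.0216). *Slc1a2* was at 542, 318, 687, 412 and 238 CPM in WT livers and 663, 545, 654, 655 and 808 CPM in KO livers. WT liver 3 was above 4 of the 5 KO livers, and WT liver 1 lay just below KO liver 2, the lowest of its group. The log2 fold change of 0.59 (SE 0.25) did not pass (edgeR adjusted p = 0.12). *Oat* was at 448, 259, 441, 266 and 175 CPM in WT livers and 492, 379.8, 779, 498 and 599 CPM in KO livers. KO liver 2 alone lay inside the WT range, and the log2 fold change of 0.79 (SE 0.27) had an edgeR adjusted p of 0.069.

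*Fzd4*, the Frizzled receptor, was at 37.6, 48.1, 45.1, 44.3 and 33.1 CPM in WT livers and 82.4, 81.2, 91.4, 92.7 and 59.5 CPM in KO livers on CDA-HFD. The groups did not overlap, and KO liver 5 was the lowest of its group. The log2 fold change was 0.96 (SE 0.14, edgeR adjusted p = 0.00769), the smallest adjusted p of the 10 genes. *Axin2*, a widely used readout of Wnt signaling, was at 30.1, 21.8, 22.4, 15.6 and 13.5 CPM in WT livers and 37.6, 32.8, 38.5, 24.2 and 37.1 CPM in KO livers. KO liver 4 was below WT liver 1, and the other 4 KO livers were above all WT livers. The log2 fold change was 0.72 (SE 0.21, edgeR adjusted p = 0.042).

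*Tbx3* was at 41.5, 47.3, 39.3, 33.8 and 13.8 CPM in WT livers and 77.6, 73.9, 83.2, 57.4 and 37.5 CPM in KO livers. KO livers 1 to 4 were above all WT livers and KO liver 5 was among them. Its log2 fold change was 0.91 (SE 0.30, edgeR adjusted p = 0.0643). *Znrf3*, the ubiquitin ligase that removes Frizzled receptors, averaged 35.8 ± 5.65 CPM in WT livers against 43.3 ± 3.45 CPM in KO livers (SD, n = 5), and its log2 fold change was 0.27 (edgeR adjusted p = 0.111). *Lgr5* was at 11.1, 11.0, 21.0, 12.1 and 11.1 CPM in WT livers and 11.8, 19.0, 14.5, 21.9 and 7.19 CPM in KO livers. KO liver 5 was the lowest of all 10, and the log2 fold change of 0.16 had a 95% interval from -0.47 to 0.79. *Lect2* was at 97.5 ± 6.19 and 111 ± 15.4 CPM (SD, n = 5), and its log2 fold change was 0.18 with a 95% interval from -0.04 to 0.40.

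**Figure D2:**
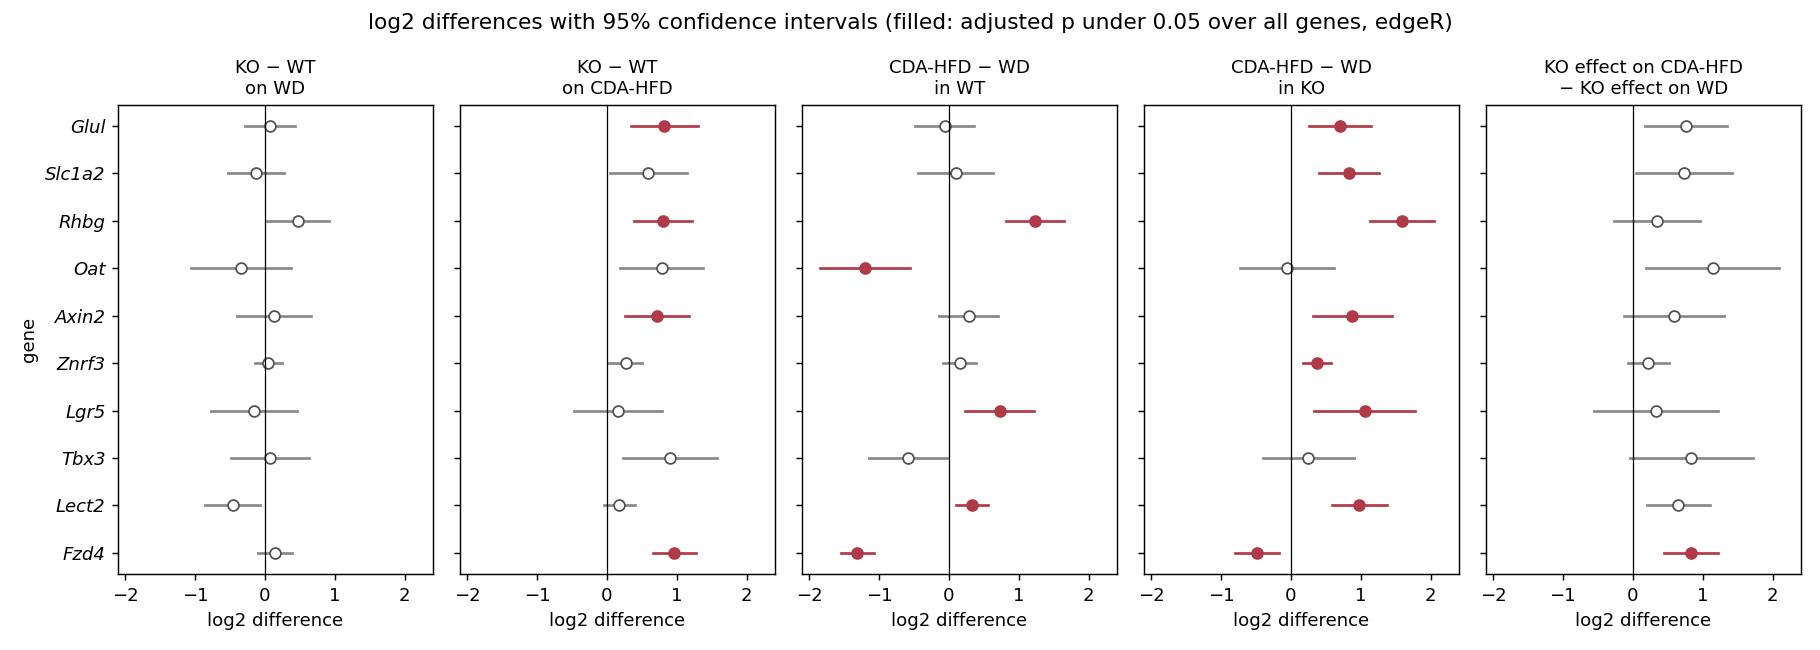
log2 differences (horizontal axes) of the 10 genes (vertical axis) in the 5 comparisons, 1 panel each, with 95% confidence intervals as lines. Filled points passed an adjusted p of 0.05 over all genes tested by edgeR. The panel of KO against WT livers on WD has 0 filled points and that on CDA-HFD has 4, while *Fzd4* alone is filled in the last panel.

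KO liver 5 split the 10 genes. It had the highest *Glul* (3510.1 CPM), *Rhbg* (71.5 CPM) and *Slc1a2* (808 CPM) of the 5 KO livers on CDA-HFD, and the lowest *Fzd4* (59.5 CPM), *Tbx3* (37.5 CPM) and *Lgr5* (7.19 CPM). Its *Oat*, *Axin2*, *Znrf3* and *Lect2* lay inside the range of the other 4. Without it, 6 of the 10 genes passed, with *Oat* and *Tbx3* added, as did 7201 of 17411 genes tested (41.4%). The log2 fold changes without it were 0.73 for *Glul*, 0.64 for *Rhbg*, 0.69 for *Axin2*, 0.76 for *Oat*, and 1.06 for both *Fzd4* and *Tbx3*. The count also moved when other livers were left out. It was 1 without KO liver 1 or 3 or WT liver 3 or 5, where 4.02% to 5.27% of all genes tested passed. It was 2 without KO liver 2 or WT liver 2 or 4, where 5.65% to 14.4% passed. *Fzd4* passed in each of these 10 fits, and *Glul* and *Axin2* passed only without WT liver 1, KO liver 4 or KO liver 5.

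**Figure D3:**
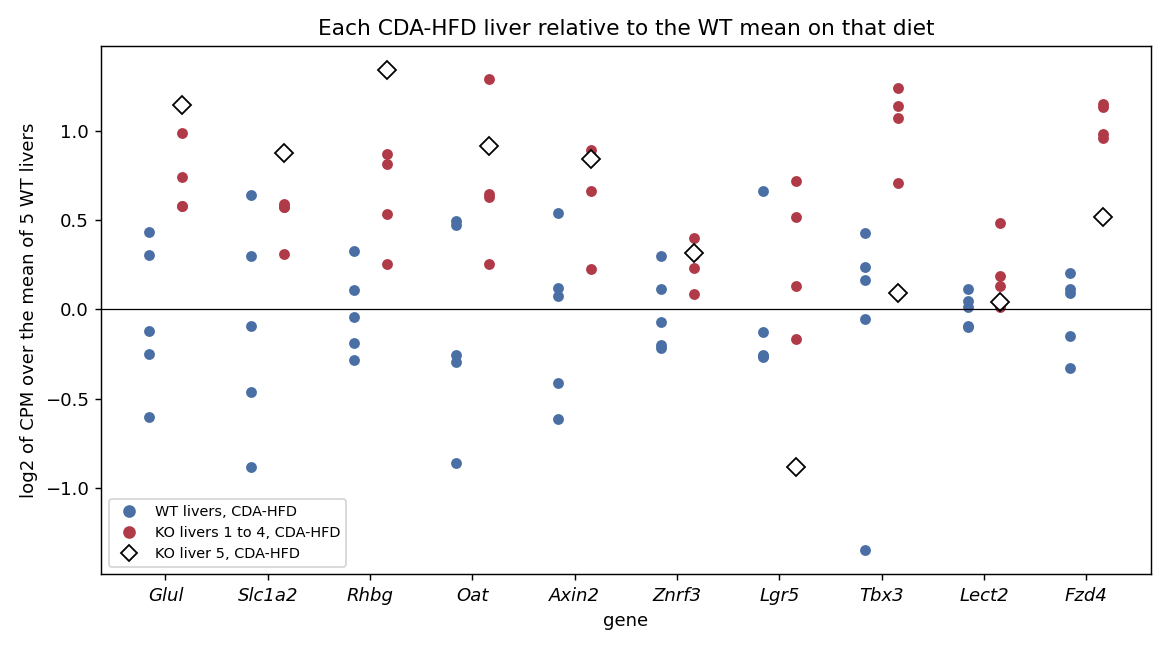
log2 of the CPM in each CDA-HFD liver over the mean of the 5 WT livers on that diet (vertical axis) for the 10 genes (horizontal axis), with blue points for WT livers, red points for KO livers 1 to 4 and open diamonds for KO liver 5. The diamond is the highest point of its column for *Glul*, *Slc1a2* and *Rhbg* and the lowest for *Lgr5*, and it is the lowest of the KO points for *Tbx3* and *Fzd4*.

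The scale of the libraries mattered on this diet. With CPM scaled by total count alone, the median log2 fold change of all genes was -0.19 and 1 of the 10 genes (*Fzd4*) passed, and the log2 fold changes of *Lgr5* and *Lect2* turned to -0.08 and -0.02. The numbers above are relative to the TMM scale, on which the median gene did not move.

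Other genes of the pericentral zone, of the Wnt pathway and of glutamine metabolism were counted from lists. The lists were compiled by hand with earlier results of these data known. Of 18 other pericentral genes on CDA-HFD, the KO raised 7 and lowered 0, with a median log2 fold change of 0.56 against 0.00 over all genes. *Prodh* (proline dehydrogenase) rose by 1.26 (SE 0.15, edgeR adjusted p = 0.00305), *Cyp1a2* by 1.17 (0.19, adjusted p = 0.00923) and *Cyp27a1*, a sterol hydroxylase of bile acid synthesis, by 0.84 (0.16, adjusted p = 0.0124). *Cyp2e1*, a cytochrome P450 of the same zone, had a log2 fold change of 0.74 and did not pass (edgeR adjusted p = 0.102).

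Periportal genes, from the opposite zone, did not move the other way. Of 18, 4 were higher and 1 was lower, and the median log2 fold change was 0.75. *Asl* and *Ass1* of the urea cycle rose by 1.15 and 1.02 (edgeR adjusted p = 0.0181 and 0.0263), and *Cdh1* (E-cadherin) fell by 0.41 (edgeR adjusted p = 0.037). *Gls2*, the liver glutaminase, and *Cps1*, which starts the urea cycle, had log2 fold changes of 1.14 and 0.94 and did not pass (edgeR adjusted p = 0.0886 and 0.0816). Of 25 partners of glutamine, glutamate and proline metabolism, 6 were higher and 4 were lower, with a median of 0.27. Besides *Prodh*, they included *Gpt* (alanine aminotransferase) at 0.75 (edgeR adjusted p = 0.0193) and the amino acid transporter *Slc7a8* at -1.005 (edgeR adjusted p = 0.00656).

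Among Wnt ligands and R-spondins, 9 of 23 passed the filter on low counts, and 1 was higher and 1 lower. That was 22.2% of those tested, against 15.5% of all genes tested. *Wnt2*, a ligand of the central vein endothelium, ranged over 2.68 to 3.997 CPM in WT livers against 4.65 to 6.89 CPM in KO livers on CDA-HFD, on 40 to 115 reads. The groups did not overlap, and the log2 fold change was 0.81 (SE 0.16, edgeR adjusted p = 0.0137). *Wnt5a* fell by 1.22 (edgeR adjusted p = 0.0468). *Wnt9b* and *Rspo3*, the other ligands of the central vein, had log2 fold changes of 0.16 and -0.34 (edgeR adjusted p = 0.745 and 0.345).

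Of 13 other Wnt receptors tested, 3 were higher and 0 lower (*Fzd8* at 0.93, *Fzd7* at 0.51 and *Lrp5* at 0.34 on the log2 scale), with a median of 0.08. Of 18 genes of the β-catenin machinery, 2 were higher (*Bcl9l* at 0.60 and *Dvl1* at 0.43) and 1 was lower (*Wls*, which carries Wnt ligands to the cell surface, at -1.10), with a median of 0.09. The shares that passed were 23.1% of these receptors and 16.7% of the machinery genes, against 15.5% of all genes tested. *Ctnnb1*, β-catenin itself, had a log2 fold change of -0.28 and *Tcf7l2*, its partner on DNA, of 0.25 (edgeR adjusted p = 0.0685 and 0.27). Of 11 other feedback and target genes, 1 was higher and 0 lower (9.09%, below the share of all genes tested). It was *Notum*, a secreted enzyme that inactivates Wnt ligands, which rose by 0.84 (SE 0.22, edgeR adjusted p = 0.0304). On WD, 0 genes passed in each of these 7 lists by edgeR's quasi-likelihood test, with or without KO liver 3, and at an unadjusted p under 0.05 there were 0 to 2 per list.

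The counts of these lists on CDA-HFD were larger without KO liver 5, where 41.4% of all genes passed. Then 9 other pericentral genes were higher and 0 lower (median 0.56), and 11 periportal genes were higher and 1 lower (median 0.92), with *Cps1*, *Gls2* and *Cyp2e1* among those that passed (log2 fold changes of 1.11, 1.38 and 0.85). Of the glutamine partners, 11 were higher and 5 lower. The Wnt lists moved both ways, with 1 higher and 3 lower of 10 ligands and R-spondins, 4 and 6 of 13 other receptors, 4 and 3 of 18 machinery genes and 2 and 3 of 11 other feedback and target genes. *Wnt2* stayed higher (0.75) and *Wnt5a* lower (-1.63), *Rspo3* and *Ctnnb1* now passed as lower (-0.58 and -0.33) and *Tcf7l2* as higher (0.35), and *Wnt9b* was at -0.10.

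**Figure D4:**
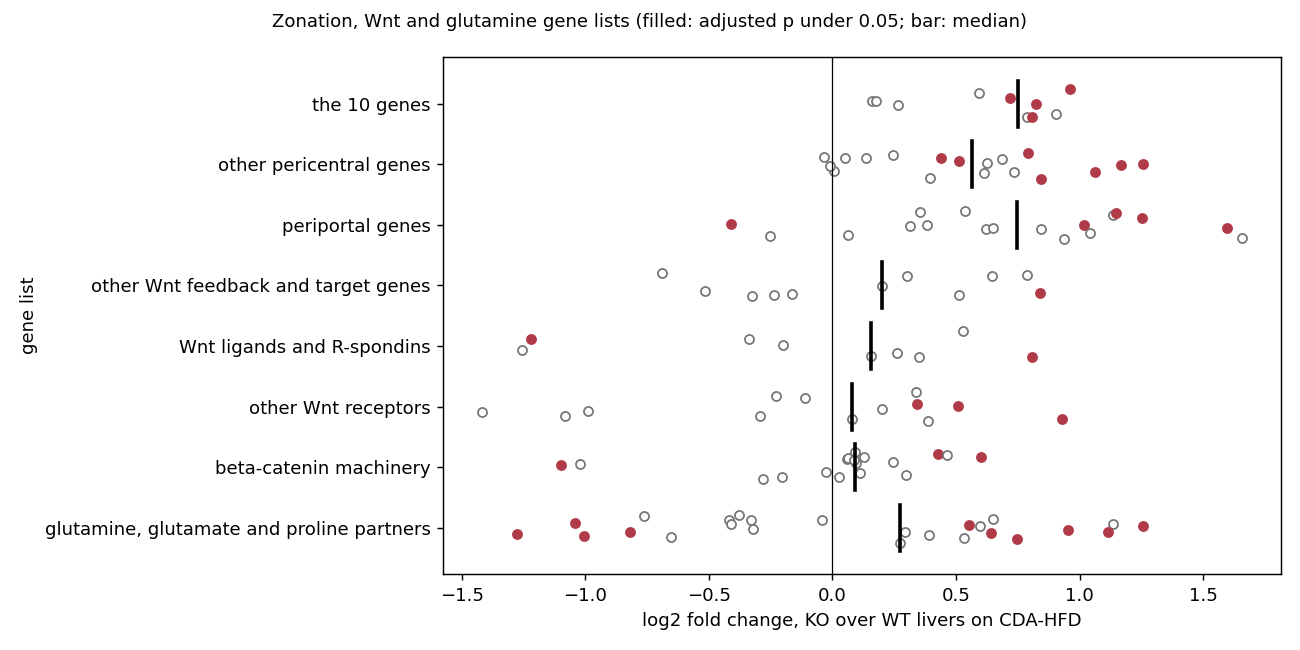
log2 fold change of KO over WT livers on CDA-HFD (horizontal axis) for the genes of 8 lists (vertical axis), 1 point per gene tested, filled where the adjusted p was under 0.05, with a black bar at the median of each list. The medians of the 10 genes (0.75), the other pericentral genes (0.56) and the periportal genes (0.75) lie to the right of those of the Wnt lists (0.08 to 0.20). The hepatocyte markers, which are not drawn, had a median of 0.67.

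Markers of hepatocytes and of other cell types were summed in each liver on CDA-HFD. With KO liver 5 included, each sum overlapped between WT and KO livers. Summed over 8 hepatocyte markers, CPM covered 29073 to 62432 in WT livers against 30470.2 to 90736 in KO livers. Of these 8 markers, 3 were higher and 0 lower, with a median log2 fold change of 0.67, near the 0.75 of the 10 genes. Over all genes tested, 15.5% passed. The 14 endothelial markers summed to 626 to 741 CPM in WT and 618 to 980.1 CPM in KO livers, and 0 of them passed by edgeR (7 at an unadjusted p under 0.05). The 12 macrophage markers summed to 2076 to 4018 and 792 to 2510.4 CPM, with 0 higher and 4 lower. The 12 stellate cell markers summed to 2675 to 4381 and 1589 to 4569 CPM (1 higher, 1 lower), the 10 cholangiocyte markers to 387 to 825 and 86.1 to 684 CPM (0 of 9 tested passed, 2 unadjusted), and the 12 lymphocyte markers to 16.6 to 32.0 and 13.3 to 36.2 CPM (0 passed, 1 unadjusted). No marker was at 0 in all livers, and *Cldn4* of the cholangiocyte list was at 0 in 3 livers. In that list 1 marker reached far higher counts than the rest, so the cholangiocyte sums, here and below, may follow 1 gene. The hepatocyte sums mostly follow 1 gene, which had 376856 to 1151990 reads over the 20 livers, against at most 71237 for the next marker. In the macrophage list, 2 markers reached 19873 and 21247 reads, against at most 7617 for the next. KO liver 5 had the lowest hepatocyte and endothelial sums of its group and the highest of the other 4. In KO livers 1 to 4, the hepatocyte and endothelial sums were at least 63134 and 872 CPM, above all WT livers. Their macrophage, stellate cell and cholangiocyte sums were at most 1052, 1744 and 194 CPM, below all WT livers. Their lymphocyte sums overlapped those of WT livers. Without KO liver 5, 4 of 8 hepatocyte and 10 of 14 endothelial markers were higher (0 and 2 lower), and 9 of 12 stellate cell, 8 of 9 cholangiocyte, 7 of 12 macrophage and 1 of 12 lymphocyte markers were lower (1, 0, 2 and 0 higher). The part of cell makeup in the differences above was not tested. In whole liver, fewer cells of a type and less RNA per cell cannot be told apart.

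The next comparison set the diets against each other in WT livers. It shares its 10 livers with the comparisons above, as the next one does with the KO livers, so the results are not independent. Of the 10 genes, 3 were higher on CDA-HFD and 2 were lower, where 51.1% of the 16726 genes tested passed in either direction. The share among the 10 genes was therefore close to that of all genes. The groups did not overlap for 3 of the 10 (*Fzd4*, *Rhbg* and *Lect2*), against 37.1% of all genes tested. Their median log2 fold change was 0.13, against 0.00 over all genes.

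*Fzd4* was at 96.5, 112, 93.9, 108 and 103 CPM in WT livers on WD, all above the highest WT liver on CDA-HFD (48.1 CPM). It fell by 1.31 on the log2 scale (SE 0.11, edgeR adjusted p = 9.01e-06). *Oat* was at 447, 484, 932, 998 and 757 CPM on WD and 175 to 448 CPM on CDA-HFD, where WT liver 1 (448 CPM) overlapped the WD livers, and fell by 1.20 (SE 0.30, edgeR adjusted p = 0.0054). *Rhbg* moved the opposite way, from 7.40 to 16.8 CPM on WD to 23.1 to 35.3 CPM on CDA-HFD, with no overlap. Its log2 fold change was 1.23 (SE 0.19, edgeR adjusted p = 0.000279).

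*Lect2* rose from 77.3 ± 11.9 to 97.5 ± 6.19 CPM (SD, n = 5) without overlap, with a log2 fold change of 0.33 (edgeR adjusted p = 0.0215). It no longer passed without WT liver 2 on WD or without WT liver 2 on CDA-HFD (edgeR adjusted p = 0.0595 and 0.0501). *Lgr5* was at 6.26, 6.09, 8.39, 7.72 and 11.4 CPM on WD and at 11.0 to 21.0 CPM on CDA-HFD, a log2 fold change of 0.73 (SE 0.23, edgeR adjusted p = 0.0181). *Glul* had a log2 fold change of -0.06, with a 95% interval from -0.48 to 0.36, and *Slc1a2* one of 0.10 (-0.44 to 0.63). *Axin2* (0.28), *Znrf3* (0.15) and *Tbx3* (-0.59, edgeR adjusted p = 0.0737) did not pass either, though *Tbx3* was lower without WT liver 2 or WT liver 5 on CDA-HFD (edgeR adjusted p = 0.0415 and 0.0351). With CPM scaled by total count alone, which moved the median gene by 0.42, *Axin2* and *Znrf3* passed as higher. Among the genes of ammonia and glutamine handling, *Rhbg* was therefore higher, *Oat* lower, and *Glul* and *Slc1a2* within the spread between livers.

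Of the other pericentral genes, 5 of 18 were higher and 10 lower on CDA-HFD in WT livers. *Prodh* fell by 1.30, *Cyp27a1* by 1.24 and *Cyp2e1* by 0.69, and *Cyp1a2* rose by 0.83 (edgeR adjusted p = 2.39e-05, 9.52e-05, 0.0468 and 0.0259). Of 18 periportal genes, 1 was higher (*Cdh1*, by 2.63) and 8 were lower, among them *Uroc1* of histidine breakdown by 1.94, *Arg1* of the urea cycle by 1.33 and *Gls2* by 1.32. *Cps1* had a log2 fold change of -0.82 (edgeR adjusted p = 0.0523). The medians were -0.47 and -0.91 in the 2 zones. The shares that passed were 83.3% of the other pericentral and 50% of the periportal genes, against 51.1% of all genes tested. Of 25 partners of glutamine, glutamate and proline metabolism, 9 were higher and 13 lower. *Asns* (asparagine synthetase) rose by 4.56 and the glutamine transporter *Slc1a5* by 1.46 (edgeR adjusted p = 1.75e-06 and 5.99e-05). Counts of *Asns* ran from 1 to 536 reads over the 20 livers.

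In the Wnt lists, 3 of 9 ligands and R-spondins were higher and 1 lower, 5 of 13 other receptors higher and 3 lower, 5 of 10 other feedback and target genes higher and 0 lower, and 3 of 18 machinery genes higher and 4 lower. The share that passed ran from 38.9% to 61.5% over these lists, around the 51.1% of all genes tested that passed. *Rspo3* rose by 1.02 (SE 0.19, edgeR adjusted p = 0.00103), from 4.99 to 6.87 CPM on WD to 8.65 to 15.8 CPM on CDA-HFD. *Wnt5a* and *Wnt7b* rose by 2.20 and 2.95, *Fzd1* by 1.31, the orphan receptor *Ror1* by 1.26, and *Lrp6* fell by 0.57. Counts of *Wnt7b* were low, 0 to 43 reads over the 20 livers, with 2 livers at 0. *Ccnd1* (cyclin D1), *Bambi* and *Dkk3* rose by 1.79, 2.14 and 2.84. *Pygo1* and *Wls* rose by 2.04 and 1.63, *Ctnnb1* by 0.34 and *Gsk3a* fell by 0.52. *Wnt2* (0.01), *Wnt9b* (0.35) and *Tcf7l2* (-0.14) did not pass. Beside these, 10 of 12 stellate cell markers, 9 of 9 cholangiocyte markers tested and 7 of 11 lymphocyte markers tested were higher, 9 of 14 endothelial markers and 5 of 8 hepatocyte markers were lower, and macrophage markers went both ways (6 higher, 2 lower, of 12). The stellate sum was 849 to 1486 CPM on WD and the cholangiocyte sum 43.5 to 181 CPM, and the endothelial sum was 912 to 994 CPM. Their part was not tested.

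In KO livers, 7 of the 10 genes were higher on CDA-HFD than on WD and 1 was lower. Among the 16387 genes tested, 17.0% passed in either direction. The median log2 fold change was 0.77 over the 10 genes and 0.00 over all genes. For 5 of the 10 the groups did not overlap, which held for 15.2% of all genes tested.

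*Rhbg* had the greatest difference of the 10 genes, from 11.4 to 19.7 CPM on WD to 33.5 to 71.5 CPM on CDA-HFD. Its log2 fold change was 1.59 (SE 0.21, edgeR adjusted p = 0.000822). *Glul* was at 1299, 1799.7, 1989.9, 1291 and 2235 CPM on WD, and each of the 5 livers on CDA-HFD, from 2372 CPM upward, was higher. The log2 fold change was 0.70 (SE 0.20, edgeR adjusted p = 0.0375). *Slc1a2* was at 243, 362, 319, 409 and 528 CPM on WD and 545 to 808 CPM on CDA-HFD, also without overlap, a log2 fold change of 0.83 (SE 0.19, edgeR adjusted p = 0.0164). *Oat*, which had fallen in WT livers, had a log2 fold change of -0.05 in KO livers (95% interval from -0.72 to 0.62). It was at 311, 420.1, 387, 751 and 964 CPM on WD.

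*Lect2* rose by 0.98 (SE 0.18, edgeR adjusted p = 0.00528) and *Znrf3* by 0.38 (0.09, adjusted p = 0.0183), both without overlap. *Znrf3* was at 33.0, 37.4, 33.8, 29.3 and 32.1 CPM on WD and 38.1 to 47.4 CPM on CDA-HFD. *Axin2* rose by 0.88 (0.26, adjusted p = 0.0398) and *Lgr5* by 1.06 (0.33, adjusted p = 0.0488), both with overlap between the groups. *Lgr5* was at 3.86, 7.07, 4.56, 11.0 and 8.83 CPM on WD. *Fzd4* was at 123, 133, 122, 104 and 84.7 CPM on WD and fell by 0.48 (0.14, edgeR adjusted p = 0.0398). With CPM scaled by total count alone its log2 fold change was -0.26 and did not pass (edgeR adjusted p = 0.16). *Tbx3* had a log2 fold change of 0.25 (95% interval from -0.40 to 0.90).

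The count of 8 fell to 4 without KO liver 1 or 2 of either diet, where 9.37% to 12.4% of all genes tested passed. It fell to 5 without KO liver 4 on WD (10.6% of all genes) or KO liver 3 on CDA-HFD (17.0%). *Rhbg*, *Lect2*, *Slc1a2* and *Znrf3* passed in each of the 10 fits that left out 1 liver. Without KO liver 5 on CDA-HFD, 7 passed (17.4% of all genes), and *Axin2* was the gene lost. Without KO liver 3 on WD, 6 passed (14.7% of all genes), and *Lgr5* and *Fzd4* were lost.

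In the lists, CDA-HFD raised 6 of 18 other pericentral genes in KO livers and lowered 0, with *Cyp1a2* at 1.51, the sodium-dicarboxylate transporter *Slc13a3* at 1.26 and *Gulo*, of vitamin C synthesis, at 0.81 (edgeR adjusted p = 0.00182, 0.00156 and 0.00132). *Cyp2e1* was at 0.01. Of 18 periportal genes, 1 was higher (*Cdh1*, 2.66) and 2 lower (*Sds*, -1.18, and *G6pc*, -1.06), while *Gls2* (-0.54) and *Cps1* (-0.12) did not pass. *Wnt2* rose by 1.30 (SE 0.17, edgeR adjusted p = 0.000841), from 2.02 to 2.80 CPM on WD to 4.65 to 6.89 CPM on CDA-HFD without overlap, on 22 to 115 reads. *Rspo3* rose by 0.95 (SE 0.22, edgeR adjusted p = 0.0145), and they were the 2 of 8 ligands and R-spondins tested that passed. *Wnt9b* had a log2 fold change of 0.29.

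Of 10 other feedback and target genes, 4 were higher and 0 lower, among them the Wnt inhibitor *Nkd1* by 1.30 (SE 0.13, edgeR adjusted p = 0.000188), *Ccnd1* by 2.17 and *Tcf7* by 0.70. Of 11 other receptors, *Ror1* was higher (1.15) and *Lrp6* lower (-0.47), and 0 of 18 machinery genes passed by edgeR's quasi-likelihood test (2 at an unadjusted p under 0.05), with *Ctnnb1* at 0.09 and *Tcf7l2* at 0.20. Of 24 partners of glutamine metabolism, 3 were higher (*Asns* by 4.80, *Slc1a5* by 1.18 and *Slc7a8* by 0.61) and 1 was lower. The shares that passed were 18.2% of the other receptors and 16.7% of the glutamine partners, near the 17.0% of all genes tested. Of the cell type markers, 4 of 12 macrophage, 3 of 12 stellate cell, 4 of 8 cholangiocyte, 5 of 8 lymphocyte and 1 of 8 hepatocyte markers tested were higher and 0 of 14 endothelial markers passed (4 unadjusted). Without KO liver 5 on CDA-HFD, 6 other feedback and target genes were higher and 1 lower and 3 periportal genes were higher and 3 lower. Without KO liver 3 on WD, 7 feedback and target genes were higher and 0 lower, and 6 stellate cell, 7 cholangiocyte and 2 macrophage markers were higher. The other pericentral genes (6 higher, 0 lower) and the ligands (2 higher) kept their counts without either liver. The part of the other cell types in the differences was not tested.

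Whether the effect of the KO itself differed between the diets was tested as an interaction over all 20 livers. It passed for 1 of the 10 genes, where 99 of 17804 genes tested (0.556%) passed. The median over the 10 genes was 0.69 and over all genes 0.02, and all 10 values were above 0. *Fzd4* was the gene that passed. Its KO effect was 0.14 on WD and 0.96 on CDA-HFD, a difference of 0.83 (SE 0.19, edgeR adjusted p = 0.0475). This call was lost in 18 of the 20 fits that left out 1 liver and remained without WT liver 2 or KO liver 5 on CDA-HFD. In the order of group means, *Fzd4* ran from WT on CDA-HFD (41.6 ± 6.10 CPM) through KO on CDA-HFD (81.5 ± 13.3 CPM) to WT and KO on WD (103 ± 7.65 and 113 ± 19.0 CPM, SD, n = 5 each), and the latter pair overlapped. The mean endothelial marker sums had the same order (688, 874, 940 and 956 CPM), as did the hepatocyte sums. The macrophage, stellate cell, cholangiocyte and lymphocyte sums had the reverse order. The part of cell makeup in the *Fzd4* difference was not tested.

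The differences of the KO effect for the other 9 genes ran from 0.22 for *Znrf3* to 1.14 for *Oat* and did not pass. They were 0.76 for *Glul* (edgeR adjusted p = 0.21), 0.65 for *Lect2* (adjusted p = 0.173), 0.73 for *Slc1a2* (adjusted p = 0.292) and 0.84 for *Tbx3* (adjusted p = 0.349). *Glul* and *Axin2* therefore passed on CDA-HFD and not on WD, but a difference between the diets was not shown for them. In the lists, *Prodh* (1.24, SE 0.21, edgeR adjusted p = 0.0107) and *Wnt2* (1.28, SE 0.25, edgeR adjusted p = 0.024) passed, and both also passed without KO liver 5 on CDA-HFD or without KO liver 3 on WD. Without KO liver 5, 2138 of 17995 genes tested (11.9%) passed. Then 5 of 18 other pericentral genes, 4 of 18 periportal genes and 7 of 25 glutamine partners were higher (0, 0 and 1 lower). So were 2 of 8 hepatocyte and 5 of 14 endothelial markers (0 lower). Lower were 4 of 12 macrophage, 4 of 12 stellate cell and 5 of 9 cholangiocyte markers (0, 1 and 0 higher). *Prodh* was at 78.6 to 101 CPM in WT livers on CDA-HFD and at 164 to 282 CPM in the other 3 groups.

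The last question was which of the genes rose and fell together from liver to liver within a group. Pearson's r and Spearman's rho of log2 CPM with group means removed were computed for 45 pairs over 20 livers, with p-values from 100000 permutations of livers within groups and Benjamini-Hochberg adjustment over the 45 pairs. The median r was 0.15, 29 of the 45 were positive, and 6 pairs passed, all of them positive and by both measures. Both values of a point come from the same library and share its depth.

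The pairs formed 2 chains. The first joined *Glul*, *Rhbg*, *Axin2* and *Tbx3*. *Glul* and *Rhbg* had r = 0.751 and rho = 0.836 (permutation test, adjusted p = 0.000675 and 0.00112), *Glul* and *Axin2* r = 0.755 and rho = 0.795 (permutation, adjusted p = 0.0156 and 0.00333), *Rhbg* and *Axin2* r = 0.640 and rho = 0.818 (permutation, adjusted p = 0.0132 and 0.00112), and *Axin2* and *Tbx3* r = 0.763 and rho = 0.805 (permutation, adjusted p = 0.0191 and 0.0018). Without the 2 livers farthest from the median of the first gene, r was 0.774, 0.666, 0.693 and 0.617. The second joined *Oat* to *Slc1a2*, with r = 0.856 and rho = 0.857 (permutation, adjusted p = 0.000675 and 0.0018), and to *Lect2*, with r = 0.697 and rho = 0.674 (permutation, adjusted p = 0.0191 and 0.0226). Without the 2 farthest livers these r were 0.816 and 0.676. *Glul* and *Oat*, neighbors in the path from ornithine to glutamine, had r = 0.46 and *Glul* and *Slc1a2* had r = 0.68, and neither passed.

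Within each diet (10 livers), r for *Oat* and *Slc1a2* was 0.918 on WD and 0.856 on CDA-HFD, for *Glul* and *Rhbg* 0.776 and 0.746, for *Glul* and *Axin2* 0.732 and 0.804, and for *Rhbg* and *Axin2* 0.549 and 0.762. For *Axin2* and *Tbx3* it was 0.982 on WD, where KO liver 3 was highest for both, and 0.588 on CDA-HFD, and for *Oat* and *Lect2* 0.860 and 0.323. Without KO liver 3 on WD and KO liver 5 on CDA-HFD, r for *Axin2* and *Tbx3* was 0.951 and 0.774, for *Oat* and *Lect2* 0.952 and 0.400, and for *Rhbg* and *Axin2* 0.523 and 0.912, and the other 3 pairs lay between 0.718 and 0.915. By permutation within a diet, 4 of the 45 pairs passed on WD and 0 on CDA-HFD.

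**Figure D5:**
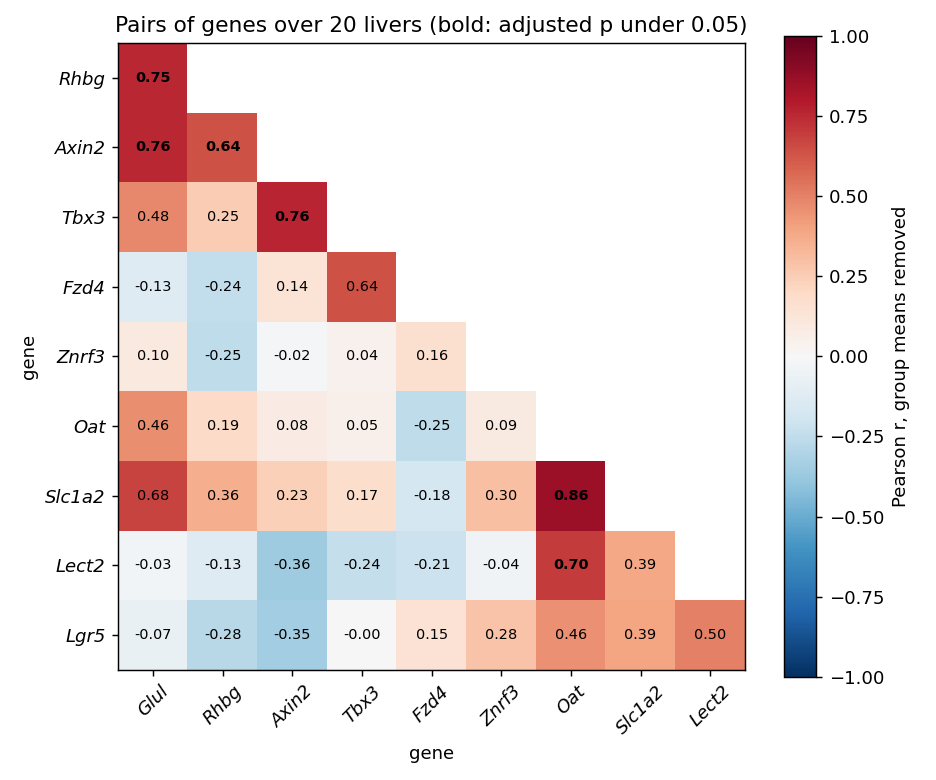
Pearson r of log2 CPM with group means removed for the 45 pairs of the 10 genes over 20 livers (both axes list genes, the color scale runs from -1 to 1), with bold numbers for the 6 pairs that passed. Warm cells gather in the corner of *Glul*, *Rhbg*, *Axin2* and *Tbx3* and around *Oat*, *Slc1a2* and *Lect2*.

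Outside the 10 genes, those whose level followed *Glul* most closely over the 20 livers, with group means removed, were *Pdha1* (r = 0.858), a subunit of pyruvate dehydrogenase, *Extl3* (0.851), *Snx29* (0.824), *Abtb1* (0.784) and *Pald1* (0.781), out of 11023 genes compared. For *Axin2* they were *H2aj* (0.882), a histone H2A gene, *Cenpb* (0.869), a centromere protein, *Tmem160* (0.850), *Nagpa* (0.849) and *Ghdc* (0.831). They are the highest of many correlations and are given as a description.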

How the data were processed

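RNA-seq was performed on 20 livers, 5 per group. The authors deposited 1 table of raw, whole-number read counts for each gene symbol. The labels' processing notes name mm10. The aligner and the counting program are not given in the sources used here. The study's methods describe a single-end Nugen Ovation library and the labels a directional NEBNext kit, so it is unknown whether strand was used in counting, which bears on genes with antisense neighbors. Entries for reads outside genes were left out of the fits. These held, of all reads tallied, 20.7% to 28.8% on no feature, 0.80% to 1.03% on more than 1 gene, 3.03% to 6.82% unaligned and 18.0% to 28.7% aligned to several places. Depth was 11697049 to 16827147 counts on genes, and no column lacked a sample. Groups came from the labels.

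Tests were run with edgeR 4.0.16, limma 3.58.1 and R 4.3.3 (filterByExpr, TMM, quasi-likelihood F test, Benjamini-Hochberg adjustment over all genes tested, threshold 0.05), with DESeq2 1.42.0 as an alternative. The groups of each comparison were fitted alone and the interaction on all 20 livers. The CPM of each of the 10 genes also went through an exact two-sided permutation test (252 splits of 5 against 5). For pairs, 2 was the prior count added before taking log2 CPM. Scripts were tested on simulated data. Libraries of the same group were checked for copies, and each pair differed by at least 6.95 times the sampling noise. The 10 genes and all lists were chosen with earlier results of these data known. Named were the 10 genes, *Cideb*, 9 fixed Wnt and zonation genes (*Wnt2*, *Wnt9b*, *Rspo3*, *Ctnnb1*, *Tcf7l2*, *Cyp2e1*, *Cyp1a2*, *Gls2* and *Cps1*), up to 3 genes with the smallest adjusted p of each Wnt, zonation and glutamine list, and the 5 genes most like *Glul* and *Axin2* among genes whose log2 CPM averaged 2 or more, without predicted genes. Cell type marker lists are given by counts and sums. Alternatives were scaling by RLE or by library size only, DESeq2, low-count filters (none, or at least 10 counts in each library), a joint fit of 20 livers, a replicate block, and leaving out each liver in turn. Coordinates come from GENCODE on GRCm38. The values of 1 cholangiocyte marker on its own are not reported here.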

Additional observations from a re-analysis of the deposited data

Results flagged for a closer look

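Of the 40 sets of 5 livers formed by the 10 genes and 4 groups, 1 held a liver far from the rest by Dixon's test, and chance flags about 2 of 40. *Lgr5* in WT liver 3 on CDA-HFD was at 21.0 CPM and the other 4 WT livers were at 11.0 to 12.1 CPM, so the gap was 0.891 of the whole range.

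The KO effect differed between the diets, as tested by the interaction in edgeR, for *Fzd4* by 0.83, for *Prodh* by 1.24 and for *Wnt2* by 1.28 on the log2 scale. The *Fzd4* call was lost in most fits that left out 1 liver. It was also lost with RLE size factors, library size only or no filter on low counts. *Prodh* and *Wnt2* also passed without KO liver 5 on CDA-HFD or without KO liver 3 on WD. For *Fzd4* and *Wnt2* the KO effects were 0.14 and -0.47 on WD and 0.96 and 0.81 on CDA-HFD.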

How the results depend on the processing

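Among the 10 genes, the count that passed in KO against WT livers was 0 on WD under each alternative. On CDA-HFD it was 4, and 1 with library size only, 4 to 6 under the other settings that kept all livers, and 1 to 6 with 1 liver left out. For the diets in WT livers it was 5, and 3 with all 20 livers in one fit, where *Lgr5* and *Lect2* were lost, 7 with library size only and 4 to 6 with 1 liver left out. In KO livers it was 8, 7 with library size only, where *Fzd4* was lost, and 4 to 7 with 1 liver left out. For the interaction it was 1, and 0 with RLE size factors, with library size only or with no filter on low counts, and 0 to 1 with 1 liver left out. With 1 liver left out, the share of all genes that passed also moved. It was 4.02% to 41.4% for KO against WT on CDA-HFD and 44.8% to 50.9% for diet in WT. For diet in KO it was 9.37% to 17.4%, and for the interaction 0.194% to 11.9%. Of the pairs, 6 passed, and 0 within CDA-HFD. Leaving KO liver 3 on WD or KO liver 5 on CDA-HFD out of the lists and of the r within a diet was chosen after seeing the data. Library size only shifted the median of all genes to -0.19 for KO on CDA-HFD, 0.42 for diet in WT, 0.25 for diet in KO and -0.15 for the interaction.

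The livers were not treated as paired by the numbers in the labels. Residuals of same-numbered WT and KO livers correlated between -0.37 and 0.35. Livers with different numbers were not compared, so whether the numbers pair the livers was not tested. With a replicate block, 0 genes passed on WD, 6 in KO against WT on CDA-HFD, 5 and 8 between diets in WT and KO livers and 1 in the interaction, and the log2 fold changes of *Tbx3* on WD and *Oat* between diets in KO livers turned to -0.034 and 0.040.

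The directions that turned belonged to small differences that did not pass. Library size only gave, for KO on CDA-HFD, *Lgr5* -0.079, *Lect2* -0.024 and *Wnt9b* -0.00497, for diet in WT *Glul* 0.37 and *Tcf7l2* 0.28, and for diet in KO *Oat* 0.22 and *Cps1* 0.10. With 1 liver left out, log2 fold changes on WD ran from -0.054 to 0.16 for *Glul*, -0.16 to 0.28 for *Axin2*, -0.39 to 0.0018 for *Lgr5*, -0.25 to 0.22 for *Tbx3* and -0.12 to 0.16 for *Cyp2e1*. For KO on CDA-HFD they ran from -0.013 to 0.38 for *Lgr5* and -0.10 to 0.31 for *Wnt9b*. For diet in WT they ran from -0.18 to 0.070 for *Glul*, -0.11 to 0.27 for *Slc1a2* and -0.11 to 0.094 for *Wnt2*. For diet in KO they ran from -0.22 to 0.22 for *Oat*, -0.12 to 0.15 for *Cyp2e1* and -0.27 to 0.049 for *Cps1*. For the interaction they ran from -0.32 to 0.076 for *Wnt9b* and -0.32 to 0.043 for *Rspo3*. Apart from library size only and fewer livers, the cause of these changes was not tested.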
